A study of Homo sapiens and Mus musculus with 22 samples.

Results

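The 10 genes described here encode regulators of the mitochondrial pathway of apoptosis from the BCL2 family. They were taken by name and not by a rule on their values. Earlier results of these data were known when they were chosen. BCL2, BCL2L1 and MCL1 keep cells alive. BBC3, PMAIP1, BCL2L11, BMF and BIK promote death, and BAX and BAK1 carry it out. All 10 were found by symbol, ignoring case, in the human and in the mouse tables, among 34015 symbols in all. In the U2OS tables some members share a row with a neighbouring gene. MCL1 is listed with ADAMTSL4-AS1 in both U2OS tables, and in the table of BIX-treated U2OS cells BCL2L11 is listed with ACOXL and BAX with FTL. The share of ADAMTSL4-AS1 in the MCL1 row was not measured, and all MCL1 values of U2OS are those of this row.

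Cells commit to apoptosis through this pathway when the outer membrane of their mitochondria becomes permeable and cytochrome c leaks into the cytosol, where it starts a caspase cascade. BAX and BAK1 form the pores, the survival proteins BCL2, BCL-XL (from BCL2L1) and MCL1 hold them and their activators in check, and the BH3-only proteins, among them PUMA (BBC3), NOXA (PMAIP1), BIM (BCL2L11), BMF and BIK, bind the survival proteins. NOXA binds MCL1 in preference to BCL-XL, and MCL1 is a short-lived protein whose amount follows its synthesis closely.

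RNA had been sequenced in 14 of the 22 samples of the series, in 3 sets. The remaining 8 were chromatin immunoprecipitation samples and inputs, which were not analysed here. The human cells were U2OS, an osteosarcoma line, and the mouse cells L929, a line of fibroblasts. BIX-01294 (BIX) is a small-molecule inhibitor of the histone H3 lysine 9 (H3K9) methyltransferases G9a and GLP, and SETDB1 is another H3K9 methyltransferase.

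The first set came from mock U2OS cells, either wild type (WT) or labelled as SETDB1 knockouts (KO1, KO2). Each of these groups had 2 libraries. The labels do not say whether KO1 and KO2 are clones. The second set held U2OS cells with a vector or labelled ATG5 knockdown (KD), ATG5 being needed to build autophagosomes, each as mock and after BIX at 10 µM for 12 h. Each of its 4 groups has 1 column of values, which per the labels stands for 2 replicates. The third set held L929 cells labelled WT or knockout (KO) for cGAS, the cytosolic DNA sensor, each as mock and after the same BIX treatment, with 1 library per group. Mock is the word of the sample names: the treatment note of the RNA samples says that all cells received BIX, and what the mock cells were given is not stated in the sources used here. Nothing says that libraries came from separate cultures, so p-values of the SETDB1 set measure only the spread between its libraries, which may be technical. Those of the BIX tests measure how far the ratios of BIX to mock disagree between the labelled cell backgrounds, which may be technical too. The 2 backgrounds of a line are not fully independent.

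Values are FPKM, fragment numbers scaled by transcript length and by mapped fragments, which allow levels to be compared between genes. SETDB1 mRNA was 9.98 and 9.32 FPKM in WT libraries and 5.90 to 7.35 in the 4 labelled knockout. ATG5 mRNA did not follow its label under BIX (12.3 FPKM with vector and 13.4 in cells labelled KD), nor did Mb21d1, which encodes cGAS (3.47 in cells labelled WT and 4.41 in cells labelled KO), so these names are used as labels only. The mesenchymal markers VIM, COL1A1 and SPARC were abundant in all U2OS libraries, where COL1A2 was below 0.2 FPKM and of the 5 epithelial markers KRT8 and KRT18 were at 213 to 633, EPCAM at 1.83 to 3.68 and CDH1 at most 0.603. The fifth, KRT19, was at most 0.109 in the SETDB1 set and at 8.30 to 18.8 in the set with BIX. L929 libraries held the fibroblast markers Vim, Col1a1, Pdgfrb and S100a4, while Thy1 was listed at 0 in all 4. Read totals are not given. From the steps between low values, the L929 library labelled cGAS WT with BIX held about 0.740 of the reads of the labelled cGAS KO mock library.

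In mock WT U2OS cells the effector BAX was the most abundant member, and the survival genes BCL2L1 and MCL1 came next. Their means were 180.1 FPKM ± 1.70 (SD, n = 2), 81.6 ± 1.47 and 78.0 ± 3.88, and the 2 libraries of BCL2L1 (80.6 and 82.7) overlapped those of MCL1 (75.3 and 80.8). PMAIP1 stood at 33.4 ± 3.34, BAK1 at 19.3 ± 0.209, BBC3 at 15.8 ± 1.69 and BCL2L11 at 8.43 ± 0.182. BMF (3.16 ± 0.837), BIK (2.24 ± 0.0932) and BCL2 itself (2.23 ± 0.122) closed the order, and the libraries of BIK and BCL2 overlapped. U2OS cells thus carried far more mRNA of the relatives BCL2L1 and MCL1 (the row shared with ADAMTSL4-AS1) than of BCL2, the founding member of the family.

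Mock L929 cells had another order. Mcl1 led at 182 FPKM in cells labelled cGAS WT and 120.1 in those labelled KO, followed by Bax (137 and 110.04), Bak1 (99.9 and 96.9) and Bcl2l1 (80.1 and 48.2). Bcl2l11 (10.0 and 7.65), Bbc3 (6.23 and 5.82) and Bcl2 (3.37 and 4.50) were far lower. The BH3-only genes Bmf, Bik and Pmaip1 were below 1 FPKM in all 4 L929 libraries, and Pmaip1 was listed at 0 in 3 of them and at 0.0704 in the fourth. The human and mouse tables were made separately, so levels across them are given side by side only.

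The first comparison asks whether loss of SETDB1 changes mRNA levels in U2OS cells. None of the 10 members passed the test. BMF, whose protein binds the survival proteins when cells detach or starve, had the lowest estimate: it was at 2.57 and 3.76 FPKM in WT libraries, 2.27 and 2.20 in KO1, and 1.83 and 2.90 in KO2. The WT range overlapped that of KO2 and lay above both KO1 values. The mean difference of both knockouts from WT was -0.33 on the log2(FPKM + 1) scale (SE 0.160, 95% interval -0.68 to 0.02, limma adjusted p = 0.458).

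PMAIP1, which encodes the MCL1-binding protein NOXA, was at 31.0 and 35.8 FPKM in WT, 37.0 and 41.5 in KO1, and 37.2 and 36.1 in KO2. All 4 knockout values lay above both WT values, by a small margin. The difference was 0.18 (SE 0.0970, interval -0.03 to 0.39, adjusted p = 0.534). Bulk values cannot tell a change in RNA per cell from a change in the share of cells that express a gene.

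MCL1 averaged 78.0 FPKM in WT, 79.3 ± 11.2 (SD, n = 2) in KO1 and 78.5 ± 3.21 in KO2, so that its estimate was 0.01 with an interval of -0.21 to 0.24. BCL2L1 averaged 77.5 in KO1 and 85.2 in KO2, BAX 178 and 176, BBC3 15.5 and 15.2, BCL2L11 9.30 and 8.62, and BAK1 20.4 and 19.4. For these 6 genes the mean estimates ran from -0.04 to 0.08, and every interval bounded the change at less than 0.31 in either direction. BIK, a BH3-only protein of the endoplasmic reticulum, had an estimate of -0.20 with an interval of -0.53 to 0.14.

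By limma with Benjamini-Hochberg adjustment over 12611 genes, 0 of 10 members passed 0.05 in the mean of both knockouts, where 3.23% of all genes did. The counts were also 0 of 10 for KO1 alone (2.43% of all genes) and for KO2 alone (2.44%). At an unadjusted p under 0.05 the count against WT was still 0 members, while 11.8% of all genes passed that mark in the mean contrast, 9.56% for KO1 and 9.83% for KO2. The median difference of the members was -0.02 and that of all genes -0.01. The 3 estimates of every member and their intervals stand in the plot of SETDB1 knockout differences.

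**Figure D1:**
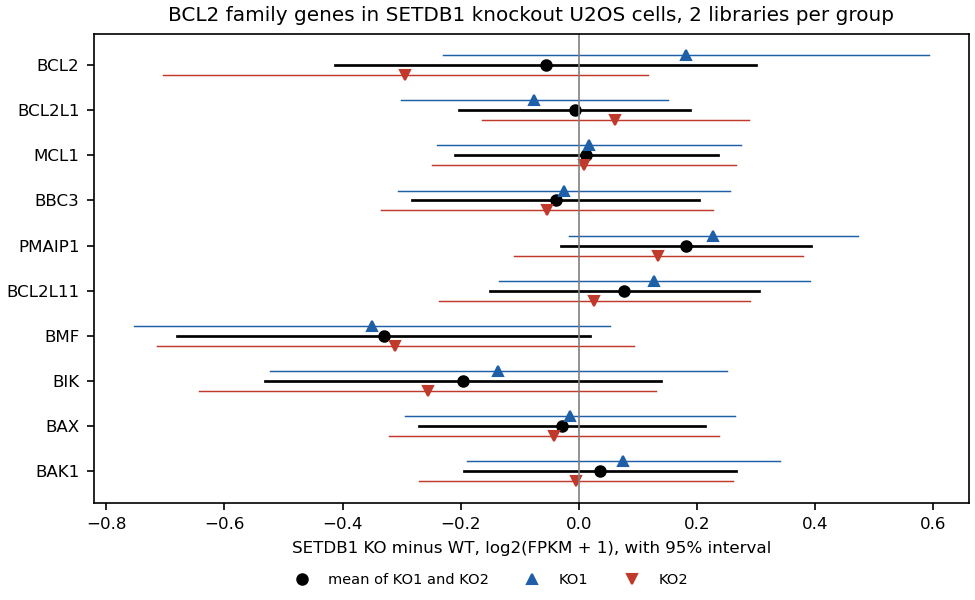
Difference of SETDB1 knockout from wild type U2OS for each of the 10 genes (x axis, log2 of FPKM + 1), with points for the mean of both knockouts and for KO1 and KO2 alone and lines for 95% intervals from limma (2 libraries per group). Every interval crosses 0, and the mean estimates lie between -0.33 for BMF and 0.18 for PMAIP1.

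Between the knockouts, BCL2 differed most. It was at 2.90 and 2.43 FPKM in KO1, 2.24 and 1.14 in KO2, and 2.31 and 2.14 in WT. The lower of the KO2 libraries stood apart from the other 5. From the steps between low values, that library held the fewest reads of the set. The KO1 libraries held about 1.40 and 1.38 times its reads and WT replicate 2 about 1.08 times. The part of depth in its BCL2 value was not tested. KO1 exceeded KO2 by 0.47 (SE 0.188, 95% interval 0.06 to 0.89). After adjustment by limma 0 of 10 members and 0% of all genes passed in that contrast. BCL2 was the 1 member with an unadjusted p under 0.05, as 1.63% of all genes had.

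The second comparison asks how BIX changes mRNA levels. Each of the 4 backgrounds (U2OS vector, U2OS labelled ATG5 KD, L929 labelled cGAS WT, L929 labelled cGAS KO) gave 1 ratio of BIX to mock. The means given for U2OS and for L929 come from 1 fit whose spread is pooled over both lines. The error given for a line thus also reflects the other line. For MCL1 in U2OS the SE was 0.241 in that fit and 0.0838 in U2OS values alone. For BMF, below 1 FPKM in L929, it was 0.0812 and 0.111. MCL1, BBC3 and BCL2L1 rose across the backgrounds of both lines, a survival gene, a death gene and another survival gene. PMAIP1 rose and BMF fell in U2OS cells, where both were expressed. BAK1 rose in U2OS and fell in L929, and BCL2L11 rose in L929 but not in U2OS. The mock and BIX levels of every member are drawn in the plot of mRNA by treatment.

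**Figure D2:**
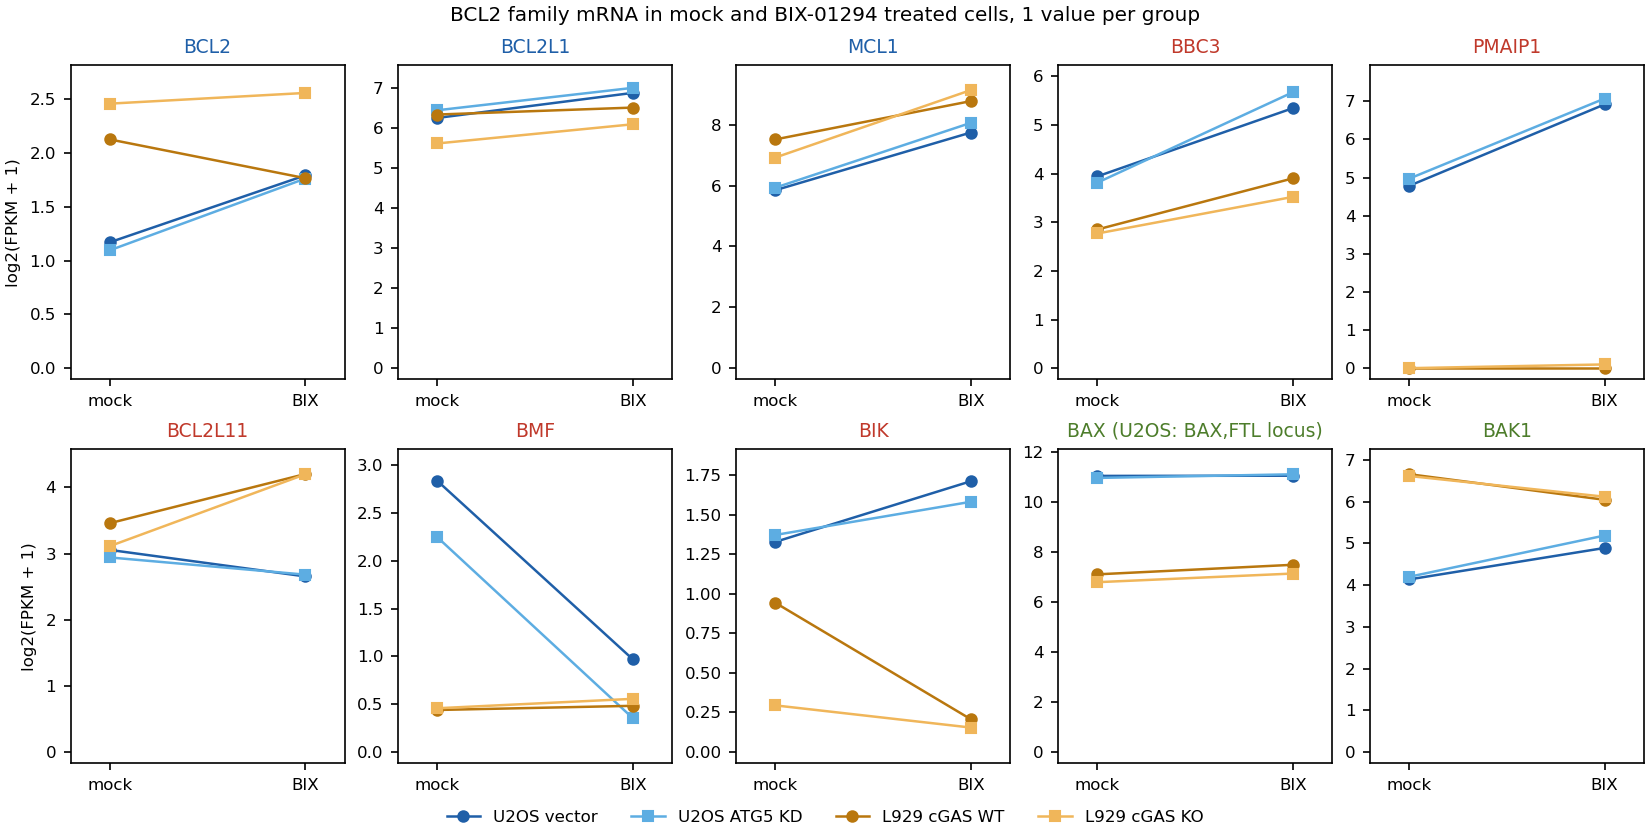
Level of each gene (y axis, log2 of FPKM + 1) in mock and BIX-treated cells of 4 backgrounds, 1 value per point, with titles in blue for survival genes, red for BH3-only genes and green for effectors (the U2OS lines of BAX are the row shared with FTL). MCL1 rises along all 4 lines, PMAIP1 rises from 26.5 and 30.3 to 120.1 and 134 FPKM in U2OS and lies at the floor in L929 (the 2 L929 lines overlap), and BAK1 rises in U2OS and falls in L929.

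MCL1 had the largest response among the survival genes. In U2OS cells the MCL1 row rose from 56.6 to 213 FPKM with vector and from 60.0 to 266 in cells labelled ATG5 KD, which are 3.77 and 4.43 times the mock level. In L929 cells Mcl1 rose from 182 to 437 (2.40 times) and from 120.1 to 562 (4.68 times) in cells labelled cGAS WT and KO. Every BIX value lay above every mock value of its line. The mean of the 4 log2 ratios was 1.88 (SE 0.169, limma adjusted p = 0.00623), with 2.01 in U2OS (SE 0.241, adjusted p = 0.00675) and 1.74 in L929 (SE 0.241, adjusted p = 0.00858).

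BCL2L1 rose less. It went from 75.5 to 117 FPKM and from 86.4 to 128 in U2OS vector and labelled KD cells, and both BIX values exceeded both mock values. In L929 it went from 80.1 to 90.6 and from 48.2 to 67.5 in cells labelled cGAS WT and KO, where the ranges of mock and BIX overlapped. The mean ratio was 0.46 over the 4 backgrounds (SE 0.110, adjusted p = 0.0338) and 0.59 in U2OS (SE 0.106, adjusted p = 0.0150). In L929 it was 0.33 (SE 0.106, 95% interval 0.05 to 0.61, adjusted p = 0.0661) and did not pass. This depended on the fit. With a filter for genes expressed in both lines it passed (limma adjusted p = 0.0470), where 53.9% of all genes were called. In L929 values alone it did not (limma adjusted p = 0.150), where 38.3% were called. Both of these fits were added after seeing the data.

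Since MCL1 responded more than BCL2L1, their order turned over in U2OS. The MCL1 row stood at 0.749 and 0.694 of the BCL2L1 level in the mock vector and labelled KD cells and at 1.82 and 2.08 times that level with BIX. In the 6 libraries of the SETDB1 set, all named mock, this ratio of levels ranged from 0.879 to 1.18. In L929, where Mcl1 was the higher from the start, the ratio went from 2.27 to 4.83 and from 2.49 to 8.32.

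BCL2 stayed a minor transcript. It rose from 1.25 to 2.47 FPKM and from 1.14 to 2.40 in U2OS, with a mean ratio of 0.64 (SE 0.142, adjusted p = 0.0252). In L929 its ratio was -0.36 in cells labelled cGAS WT (3.37 to 2.40 FPKM) and 0.10 in those labelled KO (4.50 to 4.90), and the L929 mean of -0.13 did not pass (95% interval -0.51 to 0.24).

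Among the BH3-only genes, BBC3, which encodes PUMA, an antagonist of all the survival proteins, rose in both lines. Its U2OS levels went from 14.4 to 39.8 FPKM with vector and from 13.1 to 50.2 in cells labelled KD. Its L929 levels went from 6.23 to 14.0 and from 5.82 to 10.5 in cells labelled cGAS WT and KO. BIX values were above all mock values in each line. The mean ratio was 1.27 across backgrounds (SE 0.200, adjusted p = 0.0123), 1.63 in U2OS (SE 0.158, adjusted p = 0.00504) and 0.90 in L929 (SE 0.158, adjusted p = 0.0137).

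PMAIP1 rose from 26.5 to 120.1 FPKM and from 30.3 to 134 in U2OS vector and labelled KD cells, 4.53 and 4.40 times the mock level. Its log2 ratio in U2OS was 2.12 (SE 0.103, adjusted p = 0.00402), the highest of the members in that line. The ratio of the MCL1 level to that of PMAIP1 was 2.14 and 1.98 in mock and 1.78 and 1.99 with BIX, so the mRNAs of this binding pair rose by similar factors. In L929 the gene was at or near 0 in mock and with BIX, and the mean over the 4 backgrounds, 1.08, did not pass (SE 0.437, adjusted p = 0.126).

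BMF went the other way in U2OS. It fell from 6.14 to 0.957 FPKM with vector and from 3.75 to 0.278 in cells labelled KD, to 0.156 and 0.0742 of the mock level, and both BIX values lay below all other U2OS values, the SETDB1 set included. On the log2(FPKM + 1) scale, which understates changes of low genes, the mean ratio was -1.88 (SE 0.0812, adjusted p = 0.00385). In L929 Bmf stood between 0.356 and 0.470 FPKM in all 4 libraries.

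BCL2L11 encodes BIM, an activator of BAX and BAK1. In U2OS its row, shared with ACOXL, went from 7.31 to 5.30 FPKM and from 6.68 to 5.41, a mean ratio of -0.33 that did not pass (SE 0.131, 95% interval -0.68 to 0.02, adjusted p = 0.108). Where the genes have separate rows, in the SETDB1 set, ACOXL was at most 0.171 FPKM and BCL2L11 at least 7.94. In L929 Bcl2l11 rose from 10.0 to 17.4 and from 7.65 to 17.4, a mean ratio of 0.92 (SE 0.131, adjusted p = 0.00902).

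BIK was at 1.51 and 1.59 FPKM in mock and 2.28 and 1.99 in BIX-treated U2OS cells, vector first. The mean ratio of 0.30 did not pass (SE 0.165, adjusted p = 0.213). In L929 it was below 1 FPKM throughout.

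The effector BAK1 moved in opposite directions in the lines. It rose from 16.6 to 28.6 FPKM and from 17.3 to 35.4 in U2OS vector and labelled KD cells, a mean ratio of 0.87 (SE 0.103, adjusted p = 0.00655). In L929 it fell from 99.9 to 64.9 and from 96.9 to 68.4, a mean ratio of -0.56 (SE 0.103, adjusted p = 0.0156). Mock and BIX values did not overlap in either line.

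BAX could be read in L929 only. There it went from 137 to 179 FPKM and from 110.04 to 140.1, so that mock and BIX values did not overlap, and the mean ratio was 0.36. Whether it passed depended on the fit, both fits being added after seeing the data. It did not pass in L929 values alone (SE 0.147, limma adjusted p = 0.0754), and it passed when Bax was matched to the U2OS row shared with FTL, whose spread then entered the error (SE 0.0730, adjusted p = 0.0191). The U2OS row shared with FTL, the abundant ferritin light chain, was at 2114 and 1999 FPKM in mock and 2127 and 2211 in BIX-treated cells. In the SETDB1 set, with separate rows, BAX made up 9.19% to 10.7% of the sum of both, so that the shared row is no measure of BAX.

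With the shared BAX row left out, 9 members entered the test over 10083 genes matched by symbol between human and mouse. Across the 4 backgrounds 3 of 9 were called higher and 0 lower, where 21.8% of all genes were called and 11.7% were called higher. In U2OS 6 of 9 were higher and 1 lower, where 41.1% of all genes were called, 22% higher and 19.1% lower. In L929 3 were higher and 1 lower, where 41.6% of all genes were called, 19.1% higher and 22.5% lower. Only 6 of the 9 reached 1 FPKM in L929. The median ratio of the members was 0.29 across backgrounds, 0.64 in U2OS and 0.07 in L929, against -0.01, 0.00182 and 0 for all genes tested. The L929 median is the ratio of BMF, which was below 1 FPKM there, so it does not describe the expressed members. Those 6 had L929 ratios of -0.56 (BAK1), -0.13 (BCL2), 0.33 (BCL2L1), 0.90 (BBC3), 0.92 (BCL2L11) and 1.74 (MCL1).

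**Figure D3:**
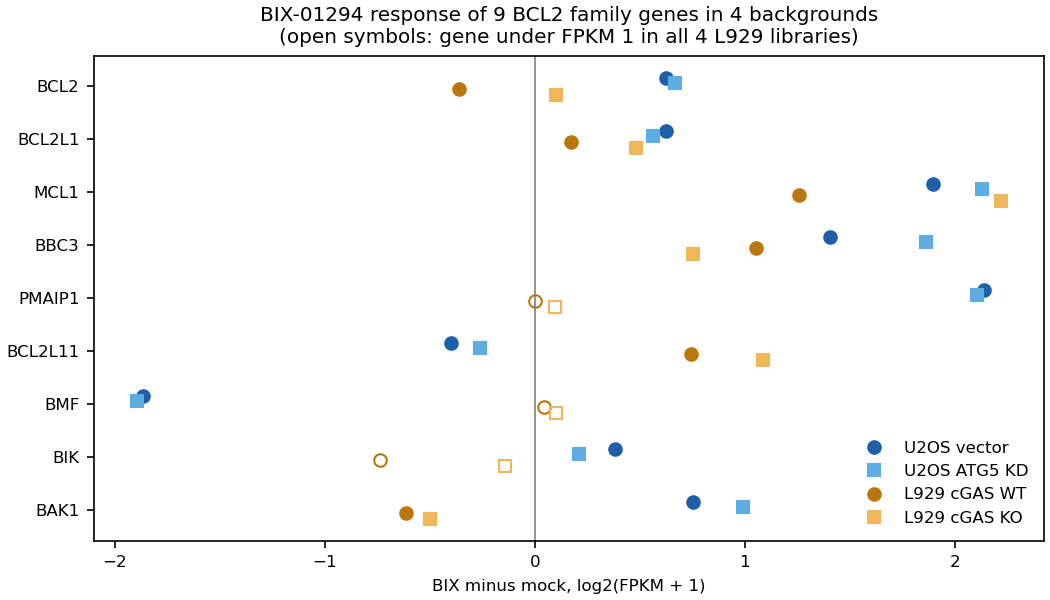
Ratio of BIX to mock (x axis, difference of log2 of FPKM + 1) for 9 genes in 4 backgrounds, 1 point each, with blue for U2OS and orange for L929 and open symbols for genes under 1 FPKM in all L929 libraries. MCL1, BBC3 and BCL2L1 lie right of 0 in all 4 backgrounds, and the U2OS and L929 points of BAK1 and of BCL2L11 lie on opposite sides of 0.

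These calls rest on few values. With either U2OS background left out, 1 member, MCL1, was called across the remaining 3 backgrounds, and 0 members, like 0 of all genes, were called in U2OS or in L929, where the spread then rests on the L929 pair. In fits of each line alone, added after seeing the data, 6 of 9 members were higher and 2 lower in U2OS (65.6% of all genes were called, 33.5% higher and 32% lower) and 3 of 7 higher and 1 lower in L929 (38.3%, 18.5% and 19.8%), with BCL2L11 (adjusted p = 0.0195) joining those lower in U2OS.

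The response differed between the lines for BAK1 and BCL2L11. The difference of the line means, U2OS minus L929, was 1.43 for BAK1 (SE 0.145, adjusted p = 0.0154) and -1.25 for BCL2L11 (SE 0.186, adjusted p = 0.0193). In both genes every U2OS ratio lay on the other side of 0 from every L929 ratio. PMAIP1 (2.07, adjusted p = 0.0148) and BMF (-1.95, adjusted p = 0.0148) were called too, but both were below 1 FPKM in L929, where no response could be read. In all, 4 of 9 members were called with PMAIP1 and BMF counted, 2 in each direction, against 26.7% of all genes, 15.4% higher and 11.3% lower. A filter for genes expressed in both lines was added after seeing the data. With it BAK1 and BCL2L11 were called and BBC3, BCL2, BCL2L1 and MCL1 were not, where 25.5% of all genes were called.

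No difference between the lines was shown for BCL2 (0.78, adjusted p = 0.0514), BBC3 (0.73, adjusted p = 0.0731), BCL2L1 (0.27, 95% interval -0.13 to 0.66) or MCL1 (0.27, interval -0.62 to 1.17). For MCL1 this interval leaves room for a difference of more than 2-fold. Cell line, species and table cannot be told apart in this comparison, and without either U2OS background 0 members and 0 of all genes were called.

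The sequences before the start sites of 3 BH3-only genes are shown: BBC3, which rose in both lines, BMF, which fell in U2OS, and BCL2L11, whose response differed between the lines. RefSeq promoter entries of GRCh38.p14, a build other than the hg19 of the values, were found for 8 of the 10 members. The 250 bases before each start follow, 5′ to 3′ on the gene's strand, with matches to 5 searched motifs in capitals. BBC3 is at chr19:47232668-47232917 (minus strand), BMF at chr15:40108880-40109129 (minus, the farther upstream of its 2 starts) and BCL2L11 at chr2:111120664-111120913 (plus).
BBC3: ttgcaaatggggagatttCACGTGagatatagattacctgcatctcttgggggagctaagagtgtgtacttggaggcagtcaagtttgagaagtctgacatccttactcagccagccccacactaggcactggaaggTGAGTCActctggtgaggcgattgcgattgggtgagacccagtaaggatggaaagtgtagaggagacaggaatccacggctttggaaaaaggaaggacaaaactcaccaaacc
BMF: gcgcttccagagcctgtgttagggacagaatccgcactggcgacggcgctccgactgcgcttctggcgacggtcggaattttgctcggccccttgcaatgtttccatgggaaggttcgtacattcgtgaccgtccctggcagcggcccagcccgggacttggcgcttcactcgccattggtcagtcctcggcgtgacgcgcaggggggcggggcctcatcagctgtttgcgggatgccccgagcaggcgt
BCL2L11: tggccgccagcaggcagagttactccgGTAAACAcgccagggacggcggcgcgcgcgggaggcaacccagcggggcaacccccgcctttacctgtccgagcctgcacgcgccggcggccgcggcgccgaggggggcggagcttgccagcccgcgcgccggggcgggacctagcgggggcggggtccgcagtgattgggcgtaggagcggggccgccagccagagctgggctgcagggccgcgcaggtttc

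The motifs were searched on both strands and none contains another. They were TGACGT, the core bound by ATF and CREB factors (in 7.09% of all 34788 windows of this length), TGAGTCA, an AP-1 site (4.21%), TTGCATCA, a composite C/EBP and ATF element (0.776%), CACGTG, an E-box (6.31%), and GTAAACA, a FOXO site (2.98%). The BBC3 window held an E-box at -232 and an AP-1 match at -113, and that of BCL2L11 a FOXO match at -223. Neither BMF window held any of the 5. No window of BCL2, BCL2L1 or BAK1, all called higher in U2OS, held any either. Of the other members with an entry, PMAIP1 had a TGACGT match at -56 and BAX 4 E-boxes. A match describes these letters only and does not show binding.

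The third comparison sets cells labelled ATG5 KD against vector, and the fourth sets cells labelled cGAS KO against WT, each in mock and in BIX-treated cells, with 1 value per group and no test. Counts of values 2-fold apart are on the log2(FPKM + 1) scale and leave out the row shared by BAX and FTL. Between the U2OS backgrounds, 0 of 9 members were 2-fold apart in mock (0.953% of all genes were), and 0 of the 8 above 1 FPKM with BIX (1.85%). In mock the widest gap was that of BMF, at 3.75 FPKM in cells labelled KD and 6.14 with vector. With BIX, the cells labelled KD had 1.25 times the MCL1, 1.26 times the BBC3 and 1.24 times the BAK1 level of the vector cells. BMF, below 1 FPKM in both and so not counted with BIX, was at 0.278 in cells labelled KD and 0.957 with vector. That is 0.290 times the level as FPKM.

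In each U2OS background taken alone, MCL1, BBC3 and PMAIP1 were at least 2-fold higher and BMF at least 2-fold lower with BIX on the log2(FPKM + 1) scale. With vector these were 3 and 1 of 9 members, where 10.6% of all genes were that far apart, 6.34% higher and 4.28% lower. In cells labelled KD the shares of all genes were 11.7%, 8.02% and 3.68%.

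In L929, 0 of the 7 members above 1 FPKM were 2-fold apart on that scale between the cells labelled KO and WT in mock (7.84% of all genes) or with BIX (11.7%). In mock, cells labelled KO had 0.601 times the Bcl2l1, 0.660 times the Mcl1 and 0.803 times the Bax level of the cells labelled WT. With BIX the Mcl1 level was instead 1.29 times that of the cells labelled WT, and Bcl2 was at 4.90 against 2.40 FPKM, 2.04 times the level as FPKM but a difference of 0.79 on the log2(FPKM + 1) scale. With BIX against mock, Mcl1 and Bbc3 were at least 2-fold higher in cells labelled WT (2 of 7 members, where 13.6% of all genes were that far apart and 7.4% higher). In cells labelled KO these were Mcl1 and Bcl2l11 (2 of 7, where the shares were 22.9% and 13%).

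Genes around the family were followed with 6 further lists, whose counts stand against 41.1% of all genes called in U2OS (22% higher, 19.1% lower) and 41.6% in L929 (19.1% higher, 22.5% lower). These lists were chosen with earlier results of these data known. A share above that of all genes is therefore no independent evidence about a list. Of transcription regulators known to act on BCL2 family genes, 11 of 13 tested were higher and 1 lower with BIX in U2OS, and 8 higher and 2 lower in L929. DDIT3, which encodes the stress factor CHOP, rose from 8.45 to 260.1 FPKM with vector and from 9.36 to 327 in cells labelled KD. In L929 it rose from 59.5 to 225 and from 55.9 to 186. Its mean ratio was 4.89 in U2OS (adjusted p = 0.0020) and 1.81 in L929, and the difference of 3.08 passed (adjusted p = 0.0148).

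The immediate early factors FOS (4.53 in U2OS, 3.56 in L929) and EGR1 (3.85 and 3.86) rose in both lines, as did MYC (2.80 and 2.15) and JUN (1.84 and 2.82). ATF3, another stress factor, rose by 3.81 in U2OS and was below 1 FPKM in L929. TRIB3, a pseudokinase induced by CHOP, rose by 2.37 in U2OS and fell by 0.85 in L929. E2F1 was the one lower in U2OS (-0.72). In the SETDB1 set 0 genes of any of the 6 lists, each with 6 to 15 genes tested, passed against WT. Of all genes, 3.23% passed in the mean of both knockouts, 2.43% for KO1 and 2.44% for KO2. With so few genes no difference from these shares is read.

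Of 9 other BCL2 family genes tested, 1 was higher and 1 lower in U2OS, and 1 higher and 2 lower in L929, with median ratios of 0.03 and 0.00434. Of all genes, 41.1% and 41.6% were called. With so few genes, and HRK not expressed in L929, no difference from these shares is read. The BH3-only gene HRK rose in U2OS from 0.622 to 6.83 FPKM with vector and from 0.734 to 6.51 in cells labelled KD (2.19, adjusted p = 0.00342), and was below 0.04 in L929. BOK, a relative of BAX and BAK1, fell in both lines, by 0.59 in U2OS and 0.85 in L929. In L929 the BH3-only gene Bad fell by 0.71 and Bcl2l15 rose by 0.87. Bnip3, a mitophagy receptor with a BH3-like stretch, went from 18.6 to 75.9 FPKM in cells labelled cGAS WT and from 11.3 to 15.6 in those labelled KO, and was not called.

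Downstream of the mitochondria, 2 of 13 apoptosome, caspase and mitochondrial factor genes were higher and 3 lower in U2OS, and 0 higher and 5 lower in L929. In each line 5 of 13 were called, close to the 41.1% and 41.6% of all genes. DIABLO (0.69) and CYCS (0.53), whose proteins leave the mitochondria in apoptosis, rose in U2OS. Casp9 (-1.12), the initiator caspase of the pathway, Endog (-1.12) and Dffa (-1.02) fell in L929. Of 6 caspase inhibitors tested, 4 were higher and 1 lower in U2OS, among them BIRC3 (1.47) and XIAP (0.66), and 1 higher and 1 lower in L929, beside the same shares of all genes. Cflar, which blocks caspase 8 at death receptors, rose by 1.79 in L929, from 10.3 to 34.1 and from 7.55 to 31.9 FPKM, and not in U2OS, a difference that passed (-1.72, adjusted p = 0.0155). BIRC5, a mitotic gene as well, fell in both lines.

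Of 7 death receptor, ligand and adaptor genes tested, 2 were higher and 2 lower in U2OS and 3 higher and 2 lower in L929, where 41.1% and 41.6% of all genes were called. The TRAIL receptor gene TNFRSF10B rose in both (1.83 and 0.94), and FADD, the adaptor of these receptors, fell in both (-0.75 and -0.65). RIPK1 fell by 0.77 in U2OS and rose by 0.66 in L929. Of 10 genes for partners and turnover of MCL1 and BIM, 3 were higher and 2 lower in U2OS and 1 higher and 4 lower in L929, which is near those shares of all genes. FBXW7, a ubiquitin ligase subunit that targets MCL1, rose by 0.98 in U2OS, and the co-chaperone gene BAG3 rose in both lines (0.80 and 0.60).

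**Figure D4:**
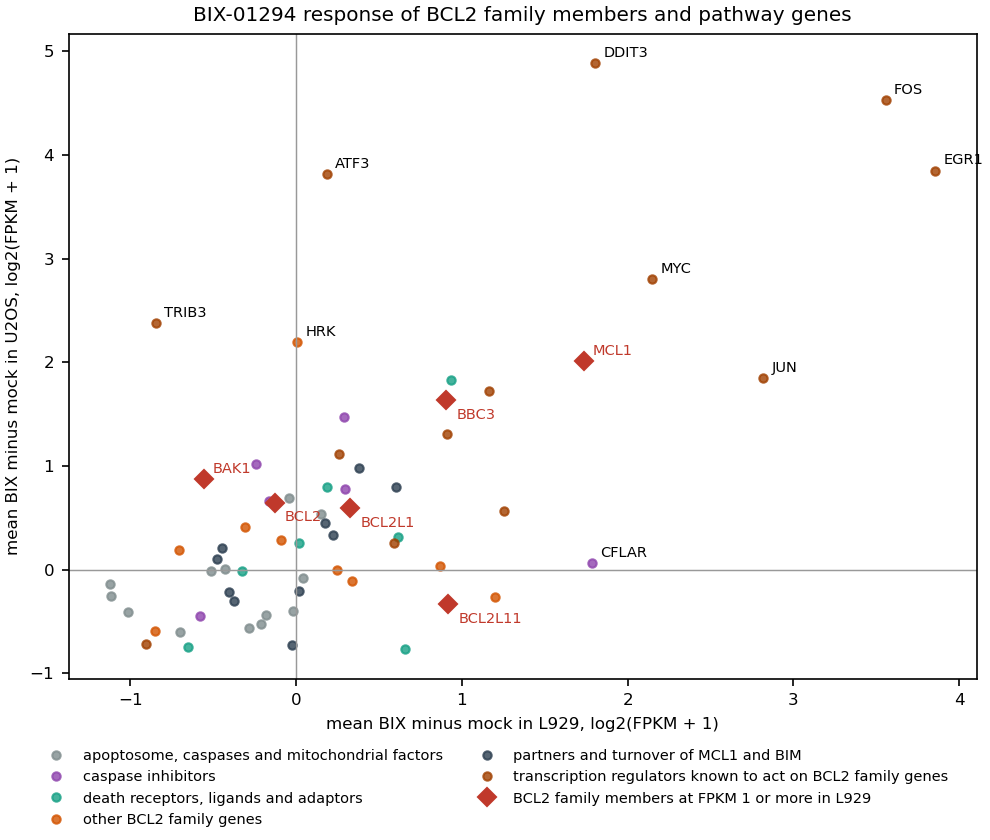
Mean ratio of BIX to mock in L929 (x axis) and in U2OS (y axis), both as differences of log2 of FPKM + 1, with red diamonds for the 6 members at 1 FPKM or more in L929 and dots for the tested genes of the 6 further lists. MCL1 (1.74 and 2.01) and BBC3 (0.90 and 1.63) lie in the upper right with most transcription regulators, BAK1 (-0.56 and 0.87) in the upper left and BCL2L11 (0.92 and -0.33) in the lower right.

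By Euclidean distance over the 4 log2 ratios, the genes closest to MCL1 were BCL6 (0.359), FLCN (0.498) and COQ10B (0.512). Those closest to BBC3 were RCL1 (0.177), MEF2D (0.280) and ETS2 (0.343), and those closest to BCL2L1 were GSPT1 (0.117), TAF2 (0.119) and SNRPG (0.124). These distances describe 4 ratios each and carry no test.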

How the data were processed

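RNA-seq values of 14 samples were used as deposited. Per the labels' protocols the authors selected poly(A) RNA and made TruSeq libraries for paired-end sequencing. FastQC, cutadapt, TopHat2 and Cufflinks, with the builds hg19 and mm10, are named in the submitters' processing notes. The sources used here give no versions, annotation or strandedness. The deposited values are FPKM per gene, from which depth is known only as far as the steps between low values show, so no counting interval is given.

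Values were taken as log2(FPKM + 1), short non-coding RNA genes were left out, and a gene was tested where 2 or more libraries reached an FPKM of 1, with limma 3.58.1 (R 4.3.3, eBayes with trend). P-values were adjusted over all genes by Benjamini and Hochberg and called under 0.05. The SETDB1 set was fitted as 3 groups of 2. The BIX ratios of 4 backgrounds were fitted against 0 and with a mean per line, the spread pooled over both lines. Single values were compared at 2-fold, without a test. The scripts were tested on simulated data.

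The 10 members, the 6 further lists and the tests were chosen with earlier results of these data known. All members are named, with up to 4 genes per further list and comparison (those called, or where untested at least 2-fold apart, with the largest difference) and the 3 genes of most similar ratios for each member called across backgrounds. E2F1 was named after its value was seen. Alternatives were another pseudocount, other filters, another scaling, a replicate block, and leaving out each library or background. Added after seeing the data were a match of the BAX and FTL row to Bax, a filter on each line, and fits of each line alone.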

Additional observations from a re-analysis of the deposited data

Results flagged for a closer look

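The BIX response of U2OS minus that of L929 passed the test for 4 of 9 members, where 26.7% of all genes were called. It was 1.43 for BAK1 and -1.25 for BCL2L11, whose lowest level in the BIX and mock libraries was 5.30 FPKM. It was 2.07 for PMAIP1 and -1.95 for BMF, which were below 1 FPKM in L929, so that these values repeat the U2OS response. Line, species and table cannot be told apart.

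The ratio of BIX to mock for Bcl2 was -0.36 in L929 cells labelled cGAS WT and 0.10 in those labelled KO, opposite signs in 1 library pair each. This difference was not tested. The BIX library labelled cGAS WT held about 0.740 of the reads of the labelled cGAS KO mock library, and the part of depth in this value was not tested.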

How the results depend on the processing

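In the SETDB1 set 0 members were called under every alternative run. Estimates near 0 changed sign: with quantile normalization BAX was at 0.0486 and BCL2L1 at 0.0513, and without 1 library MCL1 ran from -0.0589 to 0.0841, BCL2 from -0.206 to 0.0931, BAX from -0.110 to 0.0518, BBC3 from -0.142 to 0.0631, BCL2L1 from -0.0415 to 0.0273 and BAK1 from -0.0450 to 0.115. Same-numbered libraries deviated with correlations of 0.375, 0.00401 and 0.202, which does not establish pairing. With the replicate block 0 members were called, and calls over all genes in the mean contrast went from 407 to 508. They were 201 with a minimum of 5 FPKM. For KO1 they went from 306 to 179 with no filter and 150 with that minimum, and for KO2 from 308 to 185, 146 and, without KO2 replicate 2, 170 (203 without WT replicate 1).

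Without 1 background, members called ranged from 1 to 3 across backgrounds, 0 to 8 in U2OS, 0 to 5 in L929 and 0 to 7 for the difference between lines. Over all genes they went from 2194 to between 309 and 1155 across backgrounds, and to 1405 with no filter. In U2OS, in L929 and for the difference, calls over all genes also rose or fell with the background left out. Each of these fits leaves 1 background in a line, so no result about the members is read from those ranges of calls. Ratios ran from -0.12 to 0.42 for BAK1 and from -0.22 to 0.15 for BIK across backgrounds, from -0.36 to 0.10 for BCL2 in L929, and from -0.20 to 0.75 for the MCL1 difference. Among genes expressed in both lines 2 members differed between lines, since PMAIP1 and BMF were then not tested. With Bax matched to the row of BAX and FTL, 5 members were called in L929, Bax among them. With U2OS alone, 8117 genes were called in place of 4143. BCL2 in U2OS (adjusted p = 0.0508) and BCL2L1 across backgrounds (0.0515) missed 0.05 with no filter. At 1.5-fold in place of 2-fold, 7 members were apart for BIX with vector and 4 for BIX in cells labelled cGAS WT. For labelled KD against vector in mock 1 was apart, and for labelled cGAS KO against WT 2 in mock and 1 with BIX. The share of all genes at 1.5-fold was not computed, so no result about the members is read from these counts. Of the members' other values under alternatives, 333 kept direction and call, 39 lost and 9 gained the call.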
